A study of Mus musculus with 6 samples.

Results

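The Egr genes encode zinc finger transcription factors of the early growth response family. The members were the 4 rows of the deposited table whose symbol is Egr1, Egr2, Egr3 or Egr4, out of 14250 rows, and all 4 passed the filter on low counts. The tissue was the anterior cingulate cortex (ACC), taken from C57BL/6 mice on postnatal day 45. The LPS group (3 mice) had received lipopolysaccharide, a bacterial endotoxin, by intraperitoneal injection of 50 µg per kg on postnatal day 14. The saline group (3 mice) had received pyrogen-free saline on the same day. All mice were perfused under isoflurane and pentobarbital, the tissue was cut out of slices by hand, and each library came from 1 mouse. The study asks how an early inflammation relates to the adolescent cortex, its microglia and depressive behaviour.

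Egr genes are immediate early genes: neurons switch them on within minutes of synaptic input, through calcium and the ERK kinases acting on serum response factor (SRF), its Elk partners and CREB at their promoters. The proteins bind a GC-rich site through closely similar zinc fingers, and the co-repressors Nab1 and Nab2 bind Egr1, Egr2 and Egr3 and damp their activity. In the cortex, Egr1 (also called Zif268) is a standard marker of recent neuronal activity and is tied to memory storage. Egr3 is known as a partner of Egr1 in activating Arc, Egr2 (Krox20) is best known for hindbrain patterning and for myelin of Schwann cells, and Egr4 is linked to the chloride transporter gene Slc12a5.

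Libraries held 36168687 to 41270737 counts. Of the 11 fixed cortical neuron markers, 11 were in the table, among them Slc17a7 and Tbr1, and their summed level was 2711 to 2846 CPM in LPS libraries and 2613 to 2881 CPM in saline ones (CPM being counts scaled to library size with TMM factors). Markers of Schwann cells, in which Egr2 drives myelin genes, were low apart from Drp2: Ngfr averaged 0.970 CPM in LPS and 0.985 CPM in saline libraries, Prx 1.89 and 1.82 CPM, and Pmp2 and Ncmap were not analysed here. The 4 measured of 7 fixed Schwann cell markers summed to 56.5 to 103 CPM in LPS libraries, against 56.4 to 98.0 CPM in the saline group, mostly Drp2. Unannotated transcript rows took 1.61% to 2.03% of the counts of LPS libraries, against 2.51% to 2.93% in the saline group. Leaving these rows out gave edgeR log2 changes of -0.32, -1.12, -0.09 and -0.37 for Egr1, Egr2, Egr3 and Egr4. After rounding, these equal the values with all rows. What lay behind the difference in unannotated counts was not tested. In tissue RNA, fewer cells of a type and less RNA per cell cannot be told apart.

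Egr2 showed the largest difference of the 4 members. Its level was lower in each LPS library than in any saline library. The other members differed by less, and their groups overlapped. All 4 members had their lowest saline value in Saline 3 and their lowest LPS value in LPS 1. In edgeR's quasi-likelihood test with all 6 libraries, 0 of 4 members passed an adjusted p of 0.05, where 0.288% of all rows did (0.189% lower and 0.0982% higher in LPS). All 4 had a log2 change below 0, as did 49.6% of rows. At an unadjusted edgeR p below 0.05, 1 member (Egr2) was lower and 0 were higher, where 3.54% of rows were lower and 3.63% higher. DESeq2 called 1 member lower, Egr2 again, and 0 higher, where it called 0.562% of rows lower and 0.421% higher. Limma-voom called 0 members, where 0.161% of rows were lower.

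Egr2 lies on chromosome 10 of GRCm38 (67535475 to 67542188, plus strand) and no other annotated gene overlaps it. It had 19.6, 27.3 and 26.0 CPM in LPS 1, 2 and 3, against 61.2, 58.0 and 39.5 CPM in Saline 1, 2 and 3. The groups did not overlap: the highest LPS library lay below Saline 3, the lowest saline library. The means were 24.3 ± 4.11 CPM in LPS and 52.9 ± 11.7 CPM in saline libraries (SD, n = 3 each), so that the LPS mean was 46.0% of the saline mean. The log2 change was -1.12 (SE 0.212, 95% interval -1.65 to -0.59, edgeR adjusted p = 0.258 and unadjusted 0.00225 in the fit across all rows). The adjusted p thus missed the threshold, while DESeq2, with an SE of 0.166, gave an adjusted p of 6.90e-09 for the same log2 change of -1.12. Limma-voom gave an adjusted p of 0.147 (SE 0.198). Limma on log2 of the authors' FPKM (scaled to length and depth) plus 1 gave an adjusted p of 0.120. Its SE of 0.163 was close to that of DESeq2. At these like SEs, the unadjusted p was 1.55e-11 in DESeq2's Wald test and 0.00038 in limma. The Wald test uses a normal distribution, while limma and edgeR use distributions that allow for few libraries. The size of the DESeq2 p should be read with that difference in mind. Without Saline 3 the log2 change was -1.29 (SE 0.139) and edgeR called it (adjusted p = 0.0135), where that fit called 0.246% of rows lower. Leaving out any other single library gave -0.99 to -1.21, with edgeR adjusted p from 0.378 to 0.565. All LPS libraries lay below all saline libraries in 6.84% of rows, and by log2 change Egr2 was number 46 from the lowest of the 14250 rows.

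Of the members, RefSeq's promoter table for GRCm38.p6 held Egr2, with 5 windows of 300 bases, and Egr4, with 1. They are shown because the early response of these genes is read through SRF and CREB sites near the start. Each window runs from 250 bases before to 50 after an annotated start, on the gene's strand. The Egr2 window shown is chr10:67537619-67537918 (plus strand) and the Egr4 window is chr6:85513540-85513839 (minus strand). Capitals mark the matches to the motifs searched on both strands, which were the CArG box bound by SRF, the short CREB site TGACG (which reads CGTCA on the other strand), the full site TGACGTCA, which contains the short one, and the Egr site GCGNGGGCG.

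Egr2: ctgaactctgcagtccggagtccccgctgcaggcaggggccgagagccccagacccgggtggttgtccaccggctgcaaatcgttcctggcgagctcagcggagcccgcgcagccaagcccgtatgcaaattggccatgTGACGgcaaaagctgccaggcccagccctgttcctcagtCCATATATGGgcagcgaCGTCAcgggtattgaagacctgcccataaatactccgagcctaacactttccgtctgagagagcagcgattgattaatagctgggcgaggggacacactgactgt

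Egr4: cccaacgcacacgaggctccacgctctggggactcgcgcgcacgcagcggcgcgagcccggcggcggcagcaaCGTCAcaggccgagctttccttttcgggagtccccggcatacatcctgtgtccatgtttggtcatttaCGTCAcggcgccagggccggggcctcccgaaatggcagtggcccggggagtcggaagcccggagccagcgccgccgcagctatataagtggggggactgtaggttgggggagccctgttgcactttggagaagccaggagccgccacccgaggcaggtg

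The Egr2 window shown was chosen after the matches were seen, as the first of 3 overlapping windows with the same sites. The Egr2 window at the 5′ end of the gene (chr10:67535249-67535548) held 0 matches to any of the motifs, and the one at chr10:67537316-67537615 held 1 CArG box, a different one, and 0 short CREB sites. The window shown held 1 CArG box, beginning 72 bases before the start, and 2 short CREB sites, beginning 111 and 55 bases before it. The Egr4 window held 0 CArG boxes and 2 short CREB sites, beginning 177 and 109 bases before the start. A CArG box was present in 1.63% of all 32851 windows and the short CREB site in 20.8%. The full site (1.79% of windows) and the Egr site (5.55%) had 0 matches in both windows shown. Of the 20 genes of the early response list with a window in the table, 1, Dusp5, held a CArG box and 15 held the short CREB site, against 1.81% and 23.0% of all 27025 genes. A match describes these letters in this window and not a bound site.

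Egr1, on chromosome 18 (34859823 to 34864984, plus strand), had 461, 653 and 603 CPM in LPS 1, 2 and 3, against 825, 789 and 525 CPM in Saline 1, 2 and 3. Saline 3 lay below LPS 2 and LPS 3, so the groups overlapped. The means were 572 ± 99.3 CPM in LPS and 713 ± 164 CPM in saline libraries (SD, n = 3 each). The log2 change was -0.32 (SE 0.231, 95% interval -0.92 to 0.29, edgeR adjusted p = 0.822). This interval includes 0 and reaches close to -1, a size near that of Egr2. Without Saline 3 the log2 change was -0.50 (SE 0.155, edgeR adjusted p = 0.555), over 1.5 times the value with all libraries. Without LPS 1 it was -0.18, without Saline 1 -0.20 and without Saline 2 -0.24.

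Egr4, on chromosome 6 (85511121 to 85513589, minus strand), had 105, 135 and 129.7 CPM in LPS 1, 2 and 3, against 180.2, 173 and 124 CPM in Saline 1, 2 and 3. Again the overlap came from Saline 3, which lay below LPS 2 and LPS 3. The log2 change was -0.37 (SE 0.175, 95% interval -0.81 to 0.07, edgeR adjusted p = 0.746), and DESeq2 gave an adjusted p of 0.319. Without Saline 3 it was -0.52 (SE 0.108, edgeR adjusted p = 0.184).

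Egr3, on chromosome 14 (70077203 to 70082614, plus strand), had 306, 346 and 340 CPM in LPS 1, 2 and 3, against 402, 372 and 282 CPM in Saline 1, 2 and 3. Every LPS library lay between the lowest saline library and the other two. The log2 change was -0.09 (SE 0.134, 95% interval -0.41 to 0.23, edgeR adjusted p = 0.923), and an interval of this width does not show that the level was equal. Without Saline 3 it was -0.23 (SE 0.0730, edgeR adjusted p = 0.474), and without Saline 1 it was 0.02, so that its sign rests on single libraries.

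**Figure D1:**
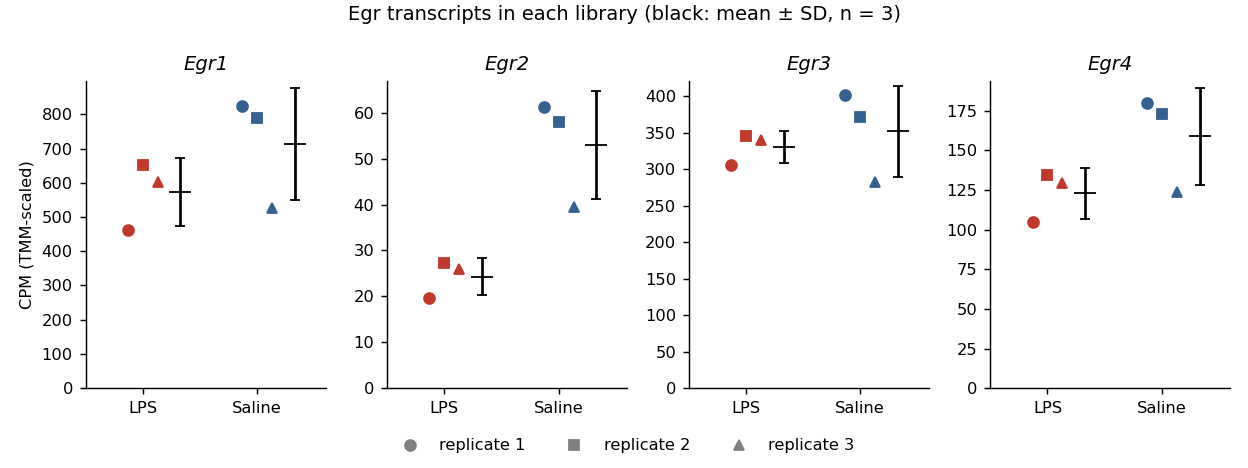
Level of each Egr transcript (CPM, linear axis from 0) in the 3 LPS and the 3 saline libraries, with the marker shape giving the replicate number and black bars the mean ± SD. Only for Egr2 do the groups not overlap, with LPS libraries at 19.6 to 27.3 CPM and saline libraries at 39.5 to 61.2 CPM, and Saline 3 is the lowest saline library in each panel.

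Leaving out Saline 3 brought the call of Egr2, and without it the groups of all 4 members did not overlap. The sign of Egr3 turned on Saline 1, and the log2 change of Egr1 moved by a larger factor without LPS 1 than without Saline 3. The CPM of Saline 3 relative to the mean of Saline 1 and Saline 2 was 0.651 for Egr1, 0.662 for Egr2, 0.703 for Egr4 and 0.729 for Egr3. The SD of log2 CPM among saline libraries was 0.27 to 0.36 for the 4 members, wider than in 85.2% to 91.1% of all rows. Saline 3 was the lowest saline library for 4 of 4 members, 21 of 26 other early response genes and 34.3% of all rows. Set against Saline 1 and Saline 2 alone, all LPS libraries were lower in 4 of 4 members, 22 of 26 other early response genes and 12.5% of all rows. Only Saline 3 was left out for this count, and it was the lowest saline library for these members in the same values. Leaving out the lowest library can only widen such a gap, so this count is no independent evidence. The summed level of the early response list was 1214, 1501 and 1224 CPM in LPS 1, 2 and 3, against 2812, 2655 and 2116 CPM in Saline 1, 2 and 3, so for this sum Saline 3 was the lowest saline library but above all LPS libraries.

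LPS 1 was the lowest LPS library for 4 of 4 members, against 34.5% of all rows, and 12.2% of rows had this order in both groups. It was also lowest for 8 of 8 oligodendrocyte markers and 7 of 7 meningeal markers, with summed levels of 1932 CPM in LPS 1 against 2655 and 2124 CPM in LPS 2 and LPS 3 for oligodendrocytes, and 351 CPM against 522 and 672 CPM for meninges. In saline libraries these sums ran from 1924 to 2459 CPM and from 253 to 477 CPM, and Saline 3 was the highest for both. Their part in the Egr values was not tested. Endothelial markers summed to 485 to 521 CPM in LPS libraries, against 473 to 512 CPM in the saline group. Microglial markers summed to 366 to 391 CPM in LPS libraries, against 348 to 368 CPM in the saline group.

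**Figure D2:**
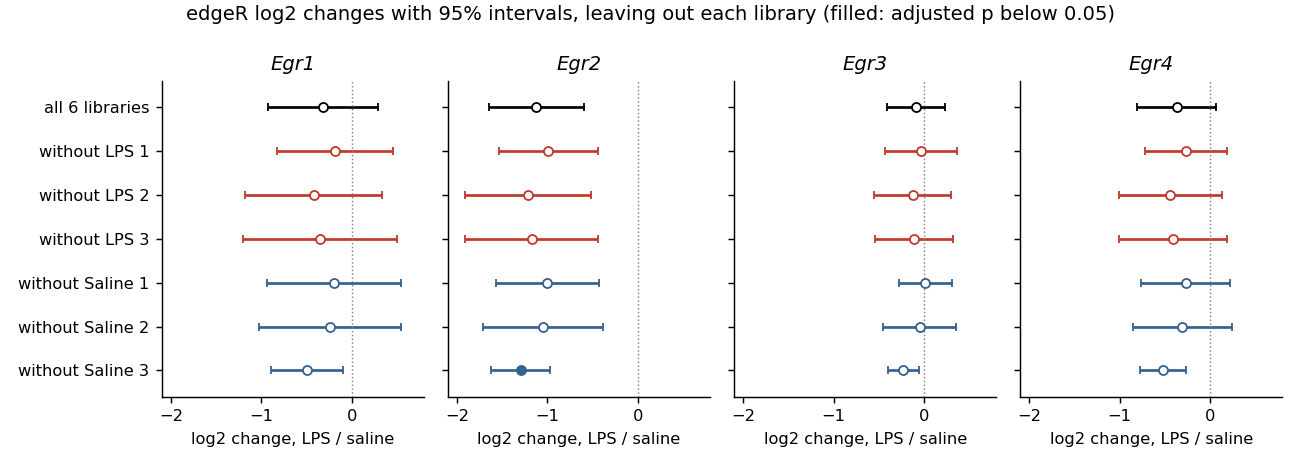
Log2 change of each Egr transcript (LPS relative to saline, edgeR, with 95% intervals) with all 6 libraries and without each one in turn, filled where the adjusted p is below 0.05. Egr2 lies at -0.99 to -1.29 in the fits without 1 library and is called only without Saline 3, which also gives each member its most negative value.

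Levels of different genes were compared on the authors' FPKM, which are scaled to transcript length. The order was Egr1, Egr3, Egr4 and Egr2, from high to low, in 6 of 6 libraries. Egr1 averaged 116 ± 18.1 FPKM in LPS and 146 ± 31.3 FPKM in saline libraries (SD, n = 3 each). Egr3 averaged 85.5 ± 4.05 FPKM in LPS and 89.4 ± 14.1 FPKM in saline libraries, and Egr4 52.2 ± 5.97 FPKM and 67.8 ± 12.0 FPKM. Egr2 was by far the scarcest, at 7.50 ± 1.11 FPKM in LPS and 16.4 ± 3.35 FPKM in saline libraries. Across libraries the ranges of Egr1 and Egr3 overlapped, as did those of Egr3 and Egr4 by a narrow margin (73.2 FPKM for Egr3 in Saline 3, 74.7 FPKM for Egr4 in Saline 2), while Egr2 overlapped no other member. Of the summed FPKM of the family, Egr2 made up 2.73%, 2.92% and 2.93% in LPS 1, 2 and 3, against 5.16%, 5.17% and 5.02% in Saline 1, 2 and 3. Saline 3, low in absolute level, did not stand apart in this share. Egr3 took 31.2% to 35.4% in LPS libraries, against 27.1% to 29.4% in the saline group. Egr4 took 19.8% to 20.2% in LPS libraries, against 21.0% to 21.6% in the saline group. Egr1 took 42.0% to 46.1% in LPS libraries, against 43.9% to 46.5% in the saline group. Shares of the same sum depend on each other, so the higher share of Egr3 does not show a rise of Egr3.

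Ratios of counts between members within a library do not depend on library scaling, and they set the members against each other directly. The log2 ratio of Egr2 to Egr1 was -4.55, -4.58 and -4.53 in LPS 1, 2 and 3, against -3.75, -3.76 and -3.73 in Saline 1, 2 and 3. Within each group the spread (SD 0.0239 in LPS and 0.0155 in saline) was below the counting error of a single library (SE 0.0309 to 0.0513). The groups were 0.80 apart on the log2 scale, with Egr2 lower relative to Egr1 in the LPS libraries. This was the tightest pair of members. In every other pair the SD within each group exceeded the counting error. In LPS libraries it was 0.161 for Egr2 to Egr3 (SE at most 0.0519) and 0.167 for Egr1 to Egr3 (SE at most 0.0164). Relative to Egr4, Egr2 had log2 ratios of -2.41 to -2.30 in LPS libraries, against -1.65 to -1.56 in the saline group, a difference of -0.75. Relative to Egr3 its log2 ratios were -3.96 to -3.66 in LPS libraries, against -2.84 to -2.68 in the saline group, a difference of -1.03. Both comparisons left a gap between the groups that exceeded the range within either group.

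Among the other members, the ratio of Egr1 to Egr4 overlapped between the groups, with a mean log2 ratio of 2.21 ± 0.0677 in LPS and 2.16 ± 0.0637 in saline libraries (SD, n = 3 each). The ratio of Egr1 to Egr3 overlapped too, at 0.78 ± 0.167 in LPS and 1.01 ± 0.0976 in saline libraries. The ratio of Egr4 to Egr3 did not, at -1.43 ± 0.102 in LPS and -1.15 ± 0.0401 in saline libraries, a difference of -0.28. An exact two-sided permutation test gave p = 0.1, the smallest that 3 against 3 libraries allow, for the 3 ratios with Egr2 and for Egr4 to Egr3. The exact p was 0.2 for Egr1 to Egr3 and 0.4 for Egr1 to Egr4. After Benjamini-Hochberg adjustment over the 6 pairs these exact p were 0.15, 0.24 and 0.4. With 3 libraries a group this test cannot place a ratio below 0.05, whatever the gap between the groups. The pairs share genes, and the 3 with Egr2 use the same Egr2 counts, so their results depend on each other. How often ratios of other genes leave such gaps was not counted.

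**Figure D3:**
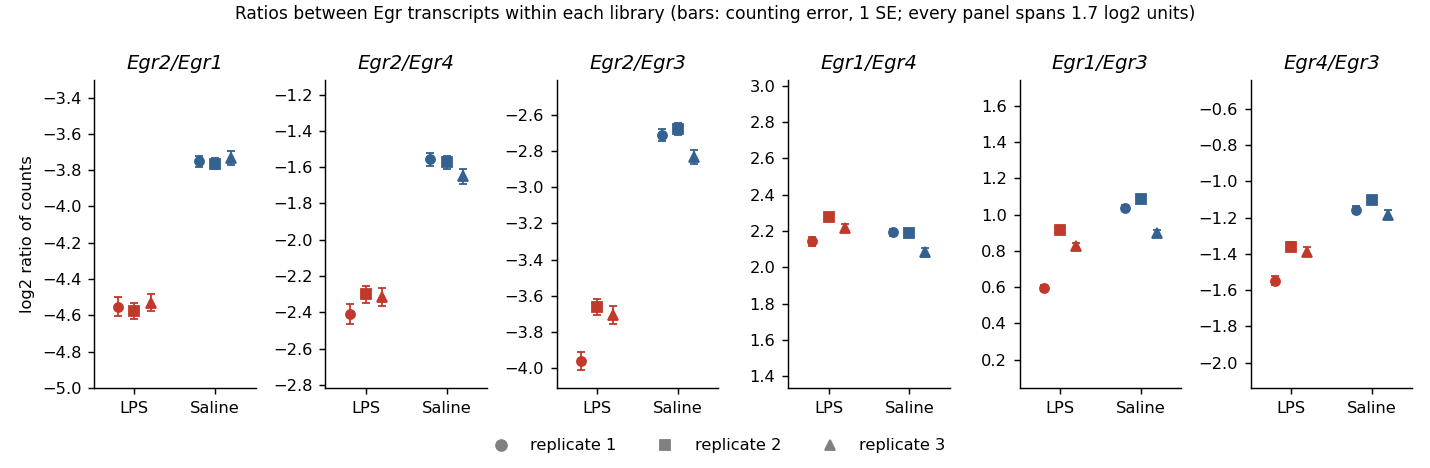
Log2 ratio of counts between each pair of Egr transcripts in each library, LPS and saline, with 1 SE of counting error and the same span of axis in every panel. Egr2 relative to Egr1 is the tightest pair within groups, at -4.58 to -4.53 in LPS libraries and -3.76 to -3.73 in the saline group. The 3 panels with Egr2 show the widest gaps between groups.

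Neither co-repressor gene was called. Nab1 had 28.9, 29.9 and 30.2 CPM in LPS 1, 2 and 3, against 32.5, 31.5 and 31.3 CPM in Saline 1, 2 and 3. Its groups did not overlap, with LPS lower, as in 6.84% of all rows. The difference was small (log2 change -0.10, SE 0.0668, 95% interval -0.25 to 0.05, edgeR adjusted p = 0.801). Nab2, itself an Egr target, had 42.9, 37.3 and 38.6 CPM in LPS libraries, against 46.5, 51.6 and 37.1 CPM in saline libraries. Like the Egr genes it was lowest of the saline libraries in Saline 3, and its log2 change was -0.19 (SE 0.119, edgeR adjusted p = 0.794), or -0.31 (SE 0.0888, edgeR adjusted p = 0.377) without Saline 3. Exons of Nab2 overlap those of Stat6 and Nemp1, and the labels do not say that strand was kept, so its reads are uncertain.

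Of the 8 measured cofactors of Egr proteins, none was called by edgeR, by DESeq2 or by limma-voom (0 in each). Over all rows edgeR called 0.288%. EdgeR gave 0 of the cofactors an unadjusted p below 0.05, where 3.54% of rows were lower and 3.63% higher. The median log2 change of the cofactors was -0.07, where that of all rows was 0.00. Crebbp, a histone acetyltransferase gene, had the smallest p of them (log2 change 0.15, SE 0.0876, edgeR adjusted p = 0.770). Wt1, a zinc finger relative that binds a similar site, was not analysed here.

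None of the measured genes that feed the Egr promoters was called. Of 10 genes for SRF, Elk, Mkl and CREB factors and of 33 genes for receptors, channels and kinases upstream, 0 were called by edgeR, by DESeq2 and by limma-voom, and edgeR gave 0 an unadjusted p below 0.05. Over all rows edgeR called 0.288%, DESeq2 called 0.562% lower and 0.421% higher, and 3.54% were lower and 3.63% higher at an unadjusted edgeR p below 0.05. Their median log2 changes were 0.03 and 0.01, but for some genes the intervals are wide, and the missing calls do not show equal levels. Srf averaged 66.1 CPM in LPS and 62.5 CPM in saline libraries. Among the factors, Elk4, Elk3 and Elk1 had the smallest p, with log2 changes of 0.24, 0.13 and -0.06, and each shares exon bases with another tested gene. Creb1 had a log2 change of 0.30 with an SE of 0.550, so that nothing can be read from it. Among the upstream genes, those with the smallest p included Ppp3ca (log2 change -0.13, SE 0.0608), a catalytic subunit gene of calcineurin, and Mapk14 (0.13, SE 0.0591), a p38 kinase gene, with edgeR adjusted p of 0.705 and 0.710. The ERK kinase gene Mapk3 had a log2 change of 0.04.

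Of 25 measured genes reported as Egr targets, 0 passed in edgeR, where 0.288% of all rows did, and the median log2 change was -0.02. At an unadjusted edgeR p below 0.05 there were 3 of the 25, where 3.54% of rows were lower and 3.63% higher. Arc, a synaptic activity gene that is itself an early gene, was far from the rest: it had 158, 259 and 164 CPM in LPS 1, 2 and 3, against 734, 717 and 483 CPM in Saline 1, 2 and 3. Its groups did not overlap, with LPS lower, as in 2 of the 25 targets and 6.84% of all rows. Saline 3 was again the lowest saline library. The log2 change of Arc was -1.74 (SE 0.294, edgeR adjusted p = 0.293). Arc was the 1 target called lower by DESeq2 and by limma-voom, which called 0.562% and 0.161% of all rows lower. The others with an unadjusted p below 0.05 were Pdgfb (0.23, SE 0.0752), a growth factor gene, and Htr2a (0.23, SE 0.0994), a serotonin receptor gene linked to Egr3, with edgeR adjusted p of 0.508 and 0.696. Slc12a5, linked to Egr4, had a log2 change of -0.05 (SE 0.0655) and Gabra4, a GABA receptor subunit gene linked to Egr3, one of -0.12 (SE 0.0660).

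**Figure D4:**
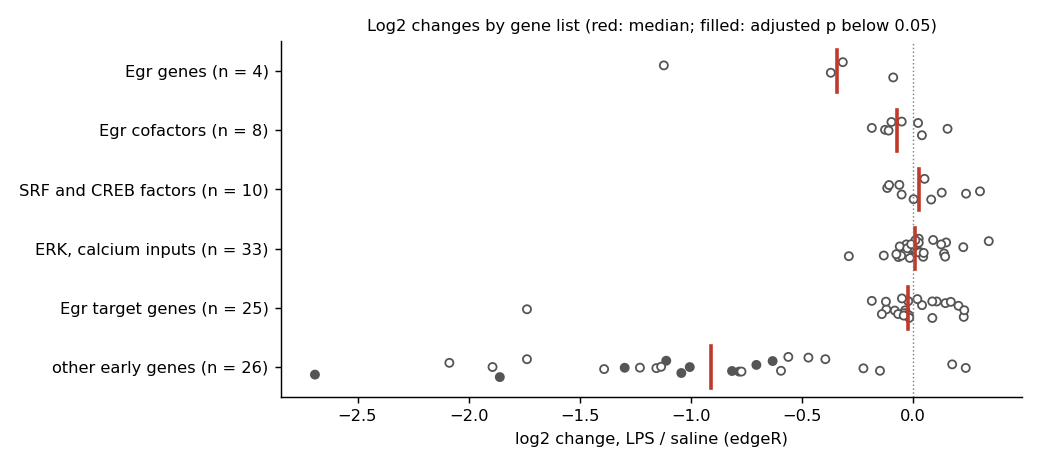
Log2 changes (LPS relative to saline, edgeR) of the members of each gene list, with the median in red and genes past an adjusted p of 0.05 filled. The medians lie at -0.34 for the Egr genes, -0.91 for the other early genes, and between -0.07 and 0.03 for cofactors, promoter factors, upstream inputs and targets.

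Other early response genes, which neuronal activity and growth factors also induce, were mostly lower in the LPS libraries. Of 26 measured, 10 fell in edgeR and 0 rose, where 0.189% and 0.0982% of all rows did, and their median log2 change was -0.91. A log2 change below 0 was found for 24 of the 26, for 4 of 4 Egr genes and for 49.6% of all rows. Whether the lists differ was not tested. DESeq2 called 19 lower and limma-voom 13, where they called 0.562% and 0.161% of all rows lower. This list was put together with earlier results of these data known, so its direction is no independent evidence. Cyr61, a secreted matrix protein gene, fell to 5.63 ± 1.1 CPM in LPS libraries, against 36.4 ± 3.68 CPM in saline libraries (SD, n = 3 each), a log2 change of -2.69 (edgeR adjusted p = 8.44e-05). Nr4a1, a nuclear receptor gene used like Egr1 as an activity marker, had a called log2 change of -1.04 (SE 0.107 and edgeR adjusted p = 0.00788). The kinase gene Sik1 (-1.30), the Krüppel-like factor genes Klf2 (-1.11) and Klf4 (-1.01) and the growth arrest gene Gadd45b (-0.82) fell as well, with edgeR adjusted p from 0.00042 to 0.0102. Without LPS 1, Nr4a1 was not called (edgeR adjusted p = 0.0591), with a log2 change of -1.05 that was close to the one with all libraries.

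Within this list Egr2 lay among Fos, Npas4 and Klf2 by log2 change, while Egr4, Egr1 and Egr3 lay near Maff, Klf10 and Ier5. Egr2 differed from called genes of like size in its spread: its SE of 0.212 compares with 0.0953 for Klf2 and 0.107 for Nr4a1. Egr2 had 823 to 2337 counts in each library.

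**Figure D5:**
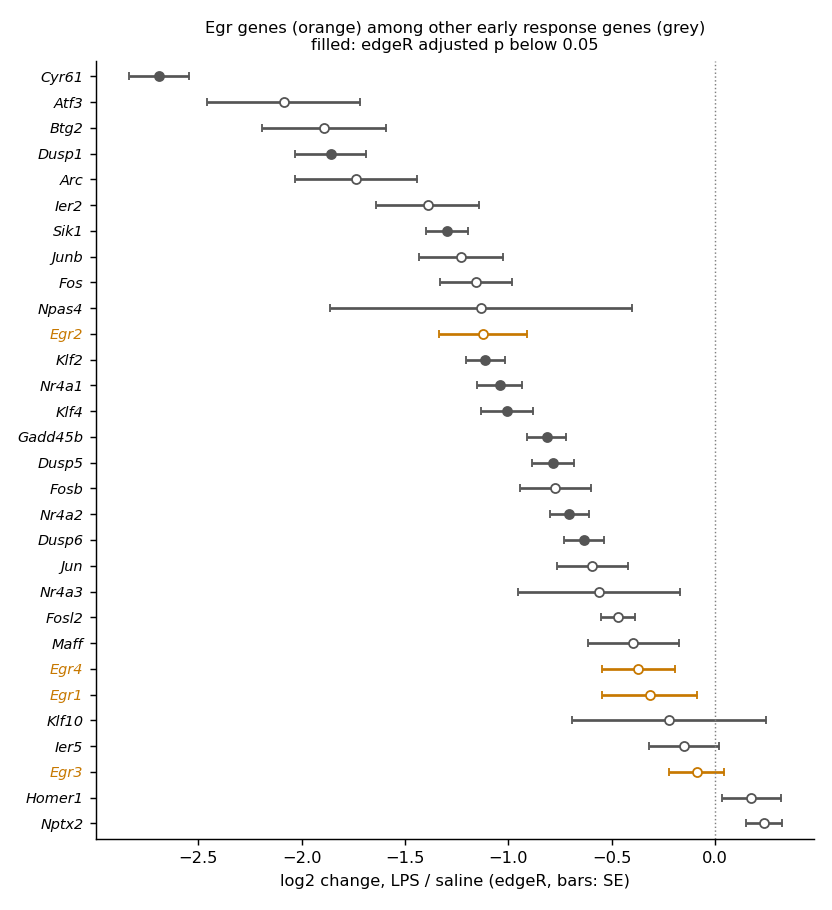
Log2 change and SE (LPS relative to saline, edgeR) of the 4 Egr genes and 26 other early response genes, ordered by log2 change and filled where the adjusted p is below 0.05. Egr2 at -1.12 falls among Npas4 and Klf2, and Egr4, Egr1 and Egr3 at -0.37, -0.32 and -0.09 lie nearer to 0.

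The genes most like each member were sought among 11111 named genes with a mean of at least 5 CPM, as the smallest root mean square difference between log2 CPM profiles over 6 libraries, each centred on its own mean. For Egr2 they were Fos (0.111), Junb (0.139) and Tiparp (0.157), where the profile of Egr2 itself had a root mean square of 0.607. The AP-1 gene Fos had 43.6, 63.2 and 51.5 CPM in LPS 1, 2 and 3, against 134, 119 and 98.9 CPM in Saline 1, 2 and 3, repeating the low values of LPS 1 and Saline 3. Egr2 to Fos had log2 ratios of -1.21 to -0.98 in LPS libraries, against -1.32 to -1.04 in the saline group. Fos was chosen for its likeness to Egr2 over these same libraries, so the overlap of these ranges follows from the choice. Junb, a second AP-1 gene whose exons overlap those of Prdx2, had a log2 change of -1.23 (SE 0.204). Tiparp, an ADP-ribosyltransferase gene, fell by 1.01 (SE 0.132, edgeR adjusted p = 0.0163), but was not called once Saline 2, LPS 1, LPS 2 or LPS 3 was left out (edgeR adjusted p 0.0717 to 0.116), with log2 changes of -1.03 to -0.98 in those fits.

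Egr1 and Egr4 were closer to each other than to any of the genes searched, apart from Per1 for Egr4. They differed by 0.0606, where the profiles of Egr1 and Egr4 had root mean squares of 0.298 and 0.273. The nearest outside genes for Egr1 were the transcriptional repressor gene Bhlhe40 (0.0808), the potassium channel gene Kcnh5 (0.0960) and Per1 (0.101). For Egr4 they were Per1 (0.0537), the muscarinic receptor gene Chrm4 (0.0809) and Kcnh5 (0.0828). Per1, a circadian clock gene that stimuli also induce, had 116, 133 and 132 CPM in LPS 1, 2 and 3, against 188, 183 and 128 CPM in Saline 1, 2 and 3. Its log2 change was -0.39 (SE 0.156, edgeR adjusted p = 0.696), or -0.55 without Saline 3 (edgeR adjusted p = 0.0193). For Egr3, whose profile had a root mean square of 0.169, the nearest were the growth factor gene Tgfb3 (0.0273), the activin subunit gene Inhbb (0.0329) and the Wnt pathway factor gene Lef1 (0.0390), each with a log2 change between -0.14 and -0.05. Bhlhe40, Tiparp, Tgfb3 and Lef1 share exon bases with annotated genes on the other strand, so their reads are uncertain. With 6 libraries and this many genes some profiles lie close by chance, and the likeness carries no test.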

How the data were processed

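RNA was sequenced from polyadenylated transcripts of 6 mice, 3 per group, with a NEBNext Ultra library kit, per the labels' protocols. The authors deposited 1 table of raw counts and of FPKM values (scaled to length and depth). TopHat2 2.1, DESeq 1.10.1 and GRCm38 are named in the submitters' processing notes, with no role given. Which program counted reads, and on which annotation, is not stated there.

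The table held 14250 rows, 13562 with an Ensembl identifier, of which 13559 were found in GENCODE M21 (GRCm38), the source of the positions given. Symbols turned into dates (23 rows) were restored from their identifiers. All rows were fitted with edgeR 4.0.16 in R 4.3.3 (quasi-likelihood, robust, TMM factors, treatment as the only term). filterByExpr removed 0 rows. P-values are two-sided and Benjamini-Hochberg adjusted over all rows, with a threshold of 0.05. SE and 95% intervals come from the same test. Intervals of counts cover counting error only. Ratios used a prior count of 2. Checked on simulated counts, the edgeR, DESeq2 and voom fits recovered most of the planted changes. The simulated spread followed only the trend with level, so the check does not cover genes with a spread of their own. It cannot decide between the differing calls of Egr2. Alternatives were DESeq2 1.42.0, limma 3.58.1 (voom, quantile normalization, and log2 of FPKM plus 1), RLE factors, other filters, the non-robust fit, a replicate block, and leaving out each library or the unannotated rows.

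The members and gene lists were chosen with earlier results of these data known. Genes named were the Egr and Nab genes, in each other list the called genes (up to 6) or else the 3 with the smallest p, and the 3 nearest profiles per member. Some genes that this rule names are not reported here. Other list members named beside them (Srf, Creb1, Mapk3, Slc12a5, Gabra4, and neighbours in a ranking) were chosen after their values were seen. Markers were used for the tissue check.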

Additional observations from a re-analysis of the deposited data

How the results depend on the processing

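The log2 changes of Egr1, Egr2 and Egr4 stayed below 0 in all alternatives run, and Egr1, Egr3 and Egr4 were called in none. Egr2 passed with DESeq2 (log2 change -1.12, adjusted p = 6.90e-09) and in edgeR without Saline 3, and in no other alternative. Leaving out 1 library gave log2 changes of -0.50 to -0.18 for Egr1, -1.29 to -0.99 for Egr2, -0.23 to 0.02 for Egr3 (0.0162 without Saline 1, the one change of sign) and -0.52 to -0.27 for Egr4. It gave 22 to 35 genes lower, 14 to 20 higher, and 7 to 11 early response genes lower. Lef1 had -0.197 to 0.0388, above 0 without Saline 1, Saline 2 or LPS 1 (0.0388, 0.0061 and 0.00983).

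Genes lower and higher were 27 and 14 with all libraries in edgeR, 80 and 60 with DESeq2, and 10 and 6 with quantile normalization, and FPKM gave 7 higher. Early response genes lower were 10, against 19 with DESeq2 and 4 with quantile normalization. Egr targets lower were 0, against 1 (Arc in DESeq2, limma-voom, FPKM and the non-robust fit). The cause was not tested. The differences between groups in the ratios of members kept their sign in each alternative, with -0.82 to -0.79 for Egr2 to Egr1 on leaving out 1 library, where the smallest exact p is 0.2.

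The labels do not say that replicate numbers pair the mice, and same-numbered libraries deviated together with r of -0.0266, 0.0252 and 0.0421. With the replicate block, Egr2 had a log2 change of -1.11 (edgeR adjusted p = 0.587), and no member's call changed.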
